A study of Mus musculus with 17 samples.

Results

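Transcripts of 10 genes of Wnt signalling were followed in mouse ovary across 4 genotypes of the gonadotropin receptors. The genes were chosen by name, with earlier results of these data known. They were ligands (Wnt10b, Wnt4, Wnt5a and Wnt2), the receptors Fzd1 and Fzd4, the secreted antagonists Sfrp1, Sfrp4 and Wif1, and Ctnnb1, which encodes beta-catenin. They are 10 of 19057 genes named on the array and are read by 19 of its 45281 probes. Of these 19 probes, 17 passed the filter on dim probes, and each of the 10 genes kept at least 1 probe.

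Wnt ligands are secreted, lipid-modified proteins that bind Frizzled receptors on the cell surface. In the canonical branch of the pathway this binding spares beta-catenin from a destruction complex, so that it can enter the nucleus and act with TCF/LEF factors on target genes; other branches do not use beta-catenin. Secreted frizzled-related proteins (Sfrp) and Wif1 bind Wnt ligands outside the cell. In the mouse ovary Wnt4 is known for its part in female gonad development and follicle growth, and Fzd4 and Sfrp4 for their link to the corpus luteum, the steroid-producing body that forms from a follicle after ovulation.

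Total RNA from ovaries was hybridised to Illumina MouseWG-6 v2 bead arrays. All mice were female, 12 weeks old and from a cross of FVB/N with C57/BL6. Wild-type ovaries (WT/WT) gave 4 arrays. An Fshr mutant, labelled Fshr-CAM, with intact Lhr (Fshr-CAM/WT) gave 4 arrays, a mutant without functional Lhr but with wild-type Fshr (WT/Lhr-/-, called Lhr-null) gave 4, and the combination of both (Fshr-CAM/Lhr-/-) gave 5. Fshr and Lhr encode the receptors for follicle-stimulating hormone and luteinising hormone. The meaning of CAM and the promoter that drives the Fshr allele are not given in the sources used here, and the labels do not say that each array came from a separate animal. The p-values therefore measure the spread between these arrays, which may in part be technical.

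Values are log2 signals after background correction and quantile normalisation. A probe was called detected on an array where its detection p was under 0.05. On this scale the undetected values of these genes lay below 5, and a level there is only an upper limit. Between 19366 and 22006 probes were detected per array.

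Not every array looked like the ovary its label gives. The array labelled Lhr-null replicate 1 had a mean of 13.73 over 7 measured pituitary genes, against 4.36 to 4.58 on the other 16 arrays, and a granulosa list mean of 6.12 against 9.60 to 11.05. It was left out of the values below, and the called results are also given with it, as "17 arrays". Lhr-null replicate 2 had a spermatid list mean of 9.40, against 4.60 to 6.74 on the other 15 arrays used. The highest of these 15 were Lhr-null replicates 3 and 4, at 6.31 and 6.74. The oviduct and ciliated epithelium list had means of 6.97 to 8.84 on the 3 Lhr-null arrays and of 5.09 to 6.12 on the remaining 13. As a check of genotype, the mutant carried more Fshr transcript than wild type by probes ILMN_1228881 (log2 difference 2.73 ± 0.34 SE, limma adjusted p = 0.0041) and ILMN_2736929 (2.09, adjusted p = 0.0213) but not by ILMN_2932141 (0.11, adjusted p = 1). With 17 arrays the first pair of differences were 2.73 and 2.07 and neither passed (limma adjusted p = 1 and 0.21). Without Lhr this check did not pass. Fshr-CAM/Lhr-null was above Lhr-null by 1.56 at ILMN_1228881 and 1.16 at ILMN_2736929 (limma adjusted p = 0.0676 and 0.2), with overlap. Lhr-null was itself above wild type at ILMN_2932141 (0.93, limma adjusted p = 0.025). At ILMN_1228881, replicate 4 of the combined genotype read 9.73 while its 4 companions read 11.41 to 11.72. The lowest array of that genotype at ILMN_2736929 read 5.58, within the Lhr-null range of 5.50 to 6.26. Leaving that array out changed no call of the 10 genes in the comparisons that use the combined genotype. No probe of the Lhr transcript was analysed here.

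The upstream sequences of Wnt10b and Wnt4 are shown first, because these ligands carry the clearest falls below. They are RefSeq promoter windows of GRCm38.p6, from 250 bases before to 50 bases after the annotated start, printed 5′ to 3′ along the gene's strand. The Wnt10b window is chr15:98778101-98778400 on the minus strand and the Wnt4 window is chr4:137277385-137277684 on the plus strand. Capitals mark the only match found in either of them to the motifs searched.
Wnt10b: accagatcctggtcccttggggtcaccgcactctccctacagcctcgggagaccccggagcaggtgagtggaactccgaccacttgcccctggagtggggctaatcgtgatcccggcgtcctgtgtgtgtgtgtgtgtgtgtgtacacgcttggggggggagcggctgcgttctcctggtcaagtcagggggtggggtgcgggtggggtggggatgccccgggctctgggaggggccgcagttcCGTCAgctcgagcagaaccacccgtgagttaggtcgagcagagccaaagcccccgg
Wnt4: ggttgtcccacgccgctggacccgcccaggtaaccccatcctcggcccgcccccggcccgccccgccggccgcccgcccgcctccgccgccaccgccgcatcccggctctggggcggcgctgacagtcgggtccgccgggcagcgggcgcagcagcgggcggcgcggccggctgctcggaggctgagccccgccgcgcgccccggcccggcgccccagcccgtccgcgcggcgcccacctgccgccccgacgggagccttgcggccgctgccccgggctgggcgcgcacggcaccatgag
Both strands were searched for TGACG (the half-site of the cAMP response element), TGACGTCA (the full element, which contains the half-site), AAGGTCA (the half-site read by the steroidogenic factors SF-1 and LRH-1) and CTTTGA (a TCF/LEF core). The Wnt10b window held 1 match to TGACG, on the opposite strand, starting 6 bases before the start. The Wnt4 window held none of the 4 motifs. Of 32851 promoter windows of the same length, 20.8% held TGACG, 1.79% TGACGTCA, 4.72% AAGGTCA and 16% CTTTGA. Of the 10 genes, 7 had a window in the RefSeq table. Among the others, Fzd1 held 1 CTTTGA match and the second Ctnnb1 window held 2 TGACG matches.

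Wnt10b, a ligand that acts mainly through beta-catenin, was present in every ovary with intact Lhr and at background in every ovary without it. At probe ILMN_2422848 the 4 wild-type arrays read 8.36, 9.29, 8.33 and 9.43. The 4 Fshr-CAM arrays read 9.32, 9.67, 8.52 and 8.50. The 3 Lhr-null arrays read 4.47, 4.57 and 4.46, and the 5 Fshr-CAM/Lhr-null arrays read 4.54, 4.50, 4.30, 4.55 and 4.52. The 8 arrays with Lhr stood far above the 8 without it, with no overlap, and the probe was detected on all of the former and on none of the latter. Lhr-null replicate 1, left out above, was also not detected (4.88). In unnormalised signal units the arrays with Lhr read 334 to 856 and the 9 without it 42.9 to 63.8.

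Wnt10b was at least 15.5-fold lower in Lhr-null than in wild type. The fitted log2 difference was -4.36 ± 0.30 (SE, n = 3 and 4, limma adjusted p = 9.77e-07; 17 arrays -4.24, adjusted p = 6.78e-07). In the Fshr mutant background, Wnt10b was at least 16.2-fold lower without Lhr, with a fitted difference of -4.52 ± 0.26 (n = 5 and 4, limma adjusted p = 3.21e-07; 17 arrays -4.50, adjusted p = 3.31e-07). Against wild type, Fshr-CAM/Lhr-null ovaries had at least 14.6-fold less Wnt10b (-4.37 ± 0.26, limma adjusted p = 1.75e-07; 17 arrays -4.35). In whole ovary, fewer cells of a type and less RNA per cell cannot be told apart. These 3 comparisons share arrays and are not independent of each other. The probe passed the dim-probe filter only through the arrays with Lhr.

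The Fshr mutation itself was not accompanied by a detectable change of Wnt10b. Fshr-CAM differed from wild type by 0.15, with a 95% interval from -0.44 to 0.74 (limma adjusted p = 1). In the absence of Lhr both groups lay at background, so neither their difference nor the interaction of the genotypes can be read for Wnt10b. A further Wnt10b probe, ILMN_2432242, was detected on 0 of 17 arrays, with signals from 36.0 to 61.6. The pair of Wnt10b probes therefore disagreed in ovaries with Lhr, and the result rests on ILMN_2422848 alone.

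**Figure D1:**
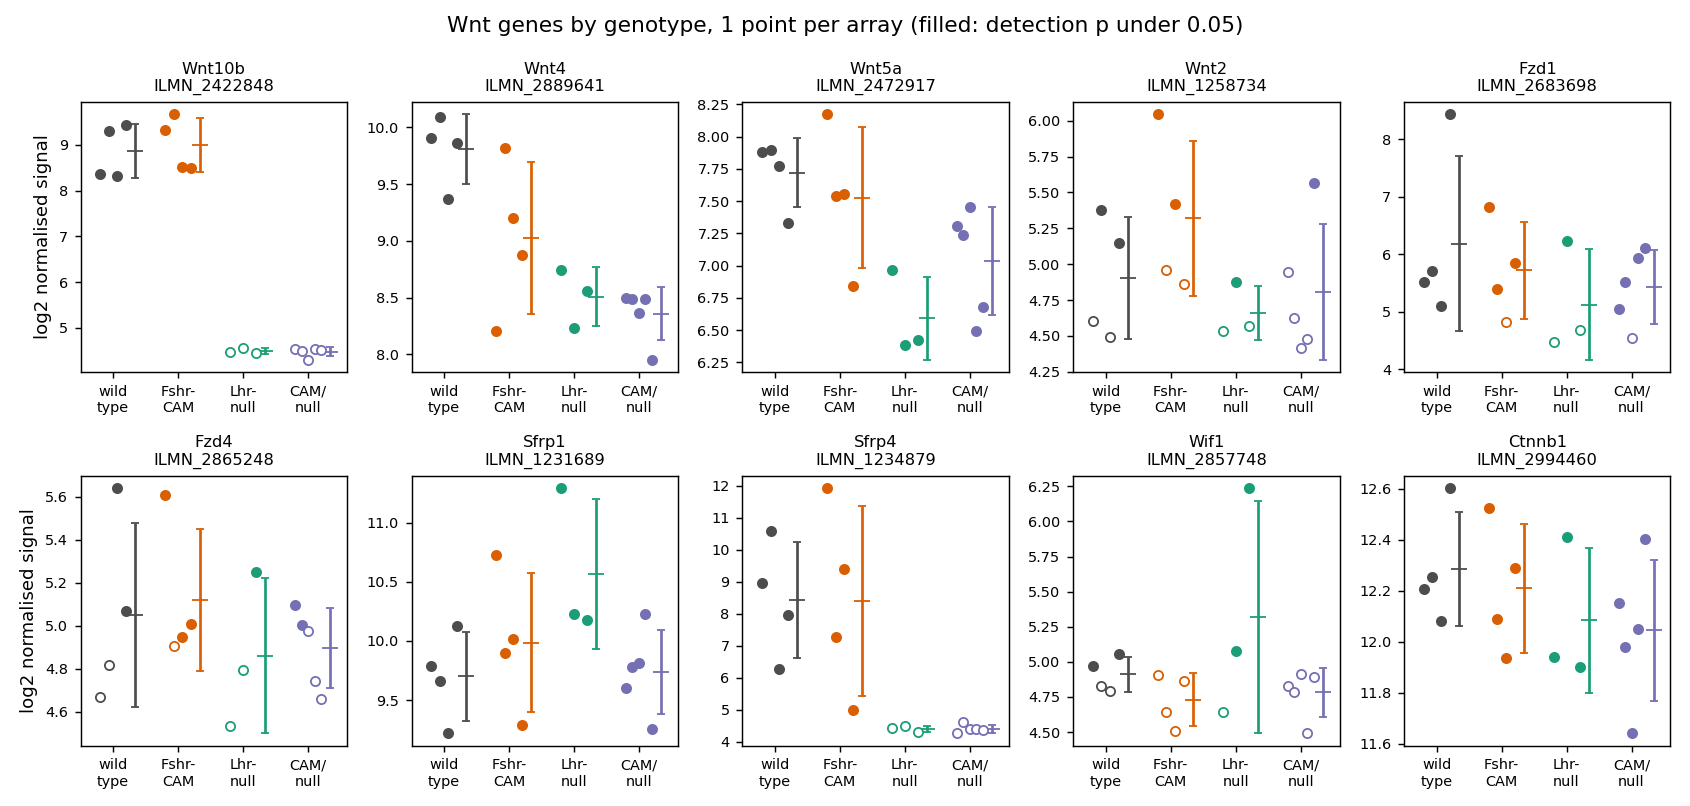
Log2 normalised signal of the 10 Wnt genes, 1 probe each, on 16 arrays, by genotype (CAM/null stands for the combined genotype). Each point is an array, filled where the probe was detected, with the mean and SD of the group to its right, and each panel has its own axis. Wnt10b and Sfrp4 are filled only with intact Lhr, while Ctnnb1 lies between 11.64 and 12.60 in all groups.

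Wnt4, the ligand needed for female gonad development, was lower in both groups without Lhr than in wild type and was detected on every array. At ILMN_2889641 wild type read 9.90, 10.10, 9.37 and 9.86, and Lhr-null read 8.74, 8.23 and 8.56. Fshr-CAM/Lhr-null read 8.50, 8.49, 8.37, 8.49 and 7.95. Every wild-type array was above every array without Lhr. Fshr-CAM was the most spread group, at 8.20, 9.82, 9.20 and 8.88, and overlapped the others.

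Wnt4 was 2.46-fold lower in Lhr-null than in wild type at this probe (-1.30 ± 0.28 SE, n = 3 and 4, limma adjusted p = 0.00915). With 17 arrays the difference was -1.78 (adjusted p = 0.0137), Lhr-null replicate 1 being the lowest array at 6.55. The other Wnt4 probe, ILMN_2512663, gave 2.83-fold lower (-1.50 ± 0.32, limma adjusted p = 0.00783; 17 arrays -2.02, adjusted p = 0.0109). Against wild type, Fshr-CAM/Lhr-null was lower by -1.45 ± 0.25 and -1.51 ± 0.28 at the 2 probes (limma adjusted p = 0.00217 and 0.00377). With 17 arrays these differences kept their size but not their call (adjusted p = 0.0517 and 0.0632).

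For Wnt4 the comparisons with Fshr-CAM did not pass the threshold. Fshr-CAM minus wild type was -0.78 ± 0.26 at ILMN_2889641 (limma adjusted p = 0.575, interval -1.34 to -0.23) and -0.82 ± 0.29 at ILMN_2512663 (adjusted p = 0.678). Fshr-CAM/Lhr-null minus Fshr-CAM was -0.67 ± 0.25 and -0.70 ± 0.28 (limma adjusted p = 0.204 and 0.235). The mean of Fshr-CAM, 9.03 ± 0.67 (SD, n = 4), lay between 9.81 ± 0.31 in wild type and 8.36 ± 0.23 in Fshr-CAM/Lhr-null. The Wnt4 interaction was 0.63 and 0.81 (limma adjusted p = 0.802 and 0.754).

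Wnt5a, a ligand known mainly for signalling that does not use beta-catenin, was lower in Lhr-null than in wild type by a smaller amount. At ILMN_2472917 wild type read 7.88, 7.90, 7.77 and 7.33, and Lhr-null read 6.96, 6.39 and 6.43. Fshr-CAM read 8.17, 7.54, 7.55 and 6.84, and Fshr-CAM/Lhr-null read 7.30, 7.24, 7.45, 6.50 and 6.68. Lhr-null did not overlap wild type, whereas both groups with Fshr-CAM spanned the gap between them.

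The Wnt5a difference of Lhr-null from wild type was -1.13 ± 0.29 (limma adjusted p = 0.0235; 17 arrays -1.52, adjusted p = 0.0202) at that probe and -0.86 ± 0.26 at ILMN_1245294 (adjusted p = 0.0467; 17 arrays -1.24, adjusted p = 0.0381). The third probe, ILMN_2511913, gave -0.96 ± 0.37 and did not pass (limma adjusted p = 0.11, and 0.0715 with 17 arrays). It passed with array weights and with only the groups compared (limma adjusted p down to 0.0439). All 3 probes were lower in Lhr-null. The call at ILMN_2472917 was lost (adjusted p up to 0.0879) without any one of wild-type replicates 1 and 2 and Lhr-null replicates 3 and 4, and the call at ILMN_1245294 in 10 of 16 fits that left out an array, with differences of -1.01 to -0.71 and adjusted p up to 0.138. The ILMN_1245294 call was also lost with the authors' normalisation, without the dim-probe filter and with only the groups compared (differences of -1.24 to -0.61 over the 8 other settings, adjusted p up to 0.0941). With 1 probe per gene, where Wnt5a is read by ILMN_2511913, 3 of the 10 genes passed and Wnt5a was not among them (adjusted p = 0.0971). Fshr-CAM/Lhr-null minus wild type was -0.69, -0.37 and -0.67 at the 3 probes and did not pass (limma adjusted p of 0.116 to 0.359). Fshr-CAM/Lhr-null minus Lhr-null was 0.44, 0.49 and 0.29, also not past the threshold. The difference of Fshr-CAM/Lhr-null from wild type at ILMN_2472917 did pass with median centring and with array weights (limma adjusted p down to 0.0452).

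Wnt2, another ligand of the beta-catenin branch, was close to background. Its probe was detected on 6 of the 16 arrays, at least 1 in each genotype, with values of 4.41 to 6.05. The highest value was Fshr-CAM replicate 1. None of the comparisons passed, and the difference of Lhr-null from wild type was -0.25 with an interval from -0.91 to 0.41.

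The receptors did not differ past the threshold between any groups compared. Fzd1 was detected on 12 of 16 arrays and varied widely within genotypes. Wild type read 5.52, 5.70, 5.10 and 8.43, Fshr-CAM read 6.82, 5.39, 4.82 and 5.85, and Lhr-null read 4.47, 6.23 and 4.69. Fshr-CAM/Lhr-null lay between 4.54 and 6.11. Wild-type replicate 4 stood alone as the highest array, and all groups overlapped. The difference of Lhr-null from wild type was -1.06 ± 0.69 (limma adjusted p = 0.371, interval -2.52 to 0.41), a wide interval that includes 0.

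Fzd4, a receptor whose loss in mice impairs corpora lutea, was near background at both of its probes. ILMN_2865248 was detected on 8 of 16 arrays at 4.53 to 5.64, and ILMN_1212935 on 2 arrays, both wild type, and was not tested. The Fzd4 difference between Lhr-null and wild type was -0.19 with an interval from -0.69 to 0.31. Fzd4 values this close to background leave small changes undetectable.

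Among the antagonists, Sfrp4 was detected only where Lhr was intact, and the others did not pass the test in any comparison. Sfrp4 is a secreted frizzled-related protein known from luteal tissue in rodents. Wild type read 8.97, 10.58, 6.27 and 7.97, and Fshr-CAM read 11.94, 7.28, 9.40 and 4.99. Lhr-null read 4.44, 4.50 and 4.30, and Fshr-CAM/Lhr-null read 4.27, 4.62, 4.41, 4.40 and 4.38. Like Wnt10b, Sfrp4 was detected on all 8 arrays with Lhr and on none of the 9 without it, and the sets did not overlap. Unlike Wnt10b, its level varied widely where it was present, with an SD of 1.81 in wild type and 2.97 in Fshr-CAM, and Fshr-CAM replicate 4 lay just above background.

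Sfrp4 was at least 11.7-fold lower in Lhr-null than in wild type (fitted -4.03 ± 1.17, limma adjusted p = 0.0401; 17 arrays -4.01, adjusted p = 0.0368). In the Fshr mutant background the bound was at least 10.7-fold, and the difference did not pass the threshold (fitted -3.99 ± 1.02, limma adjusted p = 0.0671; 17 arrays 0.13). Without Fshr-CAM replicate 4 that difference was -5.11 and passed (adjusted p = 0.00634). Fshr-CAM/Lhr-null was at least 11.0-fold below wild type (fitted -4.03 ± 1.02, limma adjusted p = 0.0246; 17 arrays 0.0448). Fshr-CAM differed from wild type by -0.04, with an interval from -2.33 to 2.25 that leaves room for a change of several fold either way.

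The Sfrp4 calls depended on single arrays. Between Lhr-null and wild type the call held in 7 of 16 fits that left out 1 array, with a fitted difference of -4.76 to -3.32 and an adjusted p of up to 0.119. It was lost without wild-type replicates 1, 2 or 4, without Fshr-CAM/Lhr-null replicates 1, 2 or 5, and without any one of the Lhr-null replicates 2, 3 and 4. Between Fshr-CAM/Lhr-null and wild type it held in 14 of 16 and was lost without wild-type replicate 1 or 2 (adjusted p up to 0.0924). It was also lost with the authors' normalisation (-3.01) and with median centring (-3.12), as was the call between Lhr-null and wild type (-2.99 and -3.15). Sfrp4 too passed the dim-probe filter only through arrays with Lhr.

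Sfrp1, a further secreted frizzled-related protein, was detected on every array. At ILMN_1231689 Lhr-null read 11.29, 10.23 and 10.17, wild type 9.79, 9.66, 9.22 and 10.13, and Fshr-CAM 10.73, 9.90, 10.01 and 9.29. Fshr-CAM/Lhr-null lay between 9.26 and 10.23. Lhr-null was above wild type on each of its arrays but the difference did not pass (0.87 ± 0.33, limma adjusted p = 0.107), and with Lhr-null replicate 1 included it was -0.16. ILMN_2604282 gave 0.75 ± 0.36 (adjusted p = 0.206). The highest Sfrp1 value was that of Lhr-null replicate 2, and without that array the difference at ILMN_1231689 was 0.50.

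Wif1, which binds Wnt ligands directly, was near background. It was detected on 4 of 16 arrays: wild-type replicates 1 and 4, and Lhr-null replicates 3 and 4. Lhr-null replicate 4 was the highest at 6.24, and the other 15 arrays lay between 4.49 and 5.08. That array also had the highest oviduct and ciliated epithelium list mean, 8.84, and an Ovgp1 level of 13.33; the part of this in the Wif1 value was not tested. The difference of Lhr-null from wild type was 0.41 ± 0.26 (limma adjusted p = 0.36).

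Ctnnb1 was well above background in all genotypes. Its brightest probe, ILMN_2994460, ranged from 11.64 to 12.60 over the 16 arrays, with genotype means of 12.29 ± 0.22 in wild type, 12.21 ± 0.25 in Fshr-CAM, 12.08 ± 0.28 in Lhr-null and 12.05 ± 0.28 in Fshr-CAM/Lhr-null (SD). The largest gap between those means was 0.24, about the size of the spread within a group. No Ctnnb1 probe passed the threshold in any comparison. For ILMN_2994460 the interval for Lhr-null minus wild type ran from -0.59 to 0.18.

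The 4 Ctnnb1 probes did not move together. The dimmest, ILMN_2616556, gave -0.84 ± 0.29 for Lhr-null against wild type (limma adjusted p = 0.0787), and was not detected on Lhr-null replicate 2. ILMN_1255869, matched to a different transcript record from the other 3, gave -0.11 with an interval from -0.52 to 0.30. On wild-type replicate 4 ILMN_2994460 and ILMN_2696575 were at their group's highest (12.60 and 11.13) and ILMN_1255869 at its lowest (7.37).

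**Figure D2:**
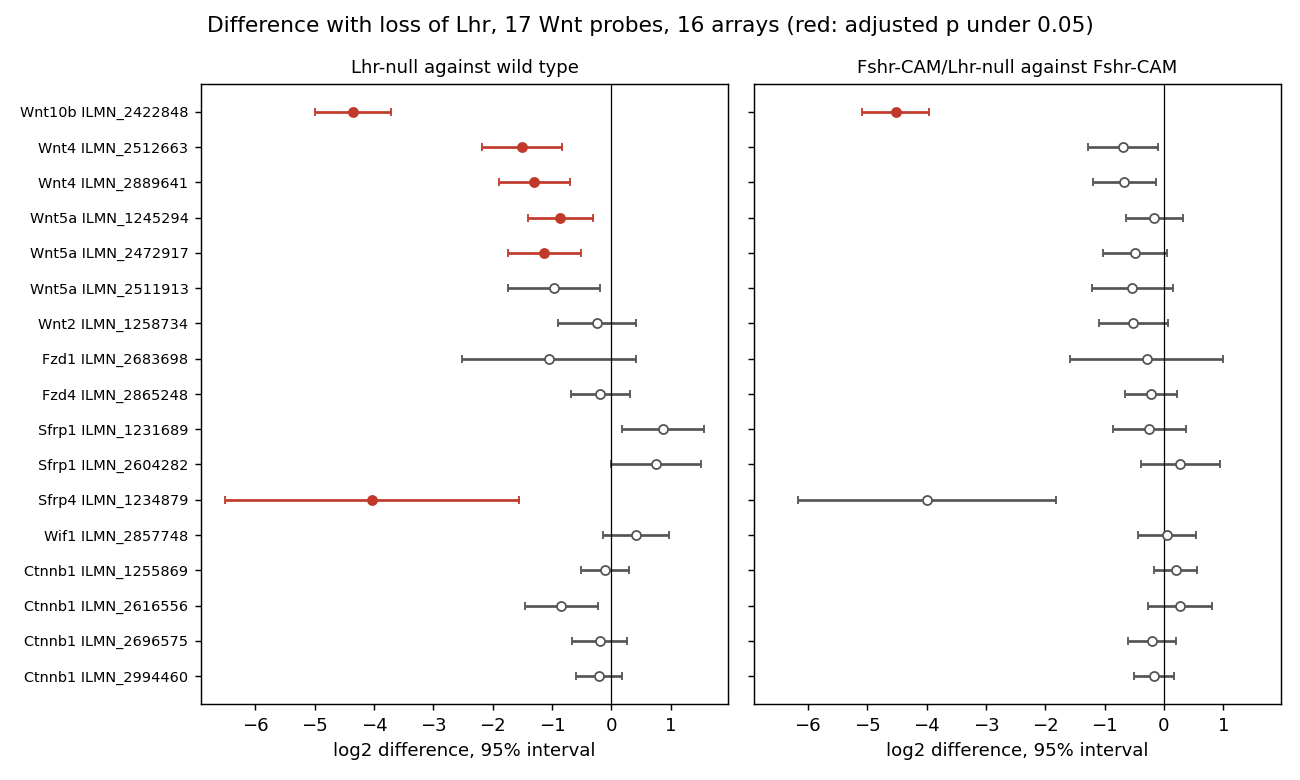
Log2 difference with loss of Lhr for the 17 tested probes, with Fshr intact (left) and in the Fshr mutant (right), from the fit on 16 arrays. Points are fitted differences with 95% intervals, red where the adjusted p was under 0.05. Wnt10b is at -4.36 and -4.52, Sfrp4 at -4.03 and -3.99, and the Wnt4 probes at -1.30 and -1.50 on the left and at -0.67 and -0.70 on the right.

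Counted over the 10 genes, 4 fell in Lhr-null against wild type (Wnt10b, Wnt4, Wnt5a and Sfrp4, by 6 of 17 probes) and 0 rose; of all 23098 probes, 5.87% fell. The median log2 difference over the 17 probes was -0.84, and that over all probes was -0.03. With 17 arrays the same 4 genes fell, where 4.03% of 23311 probes did. Without Lhr-null replicate 2, the array with the highest spermatid list mean, 3 of the 4 fell: Wnt10b by 4.36, Wnt4 by 1.42 and 1.54 and Wnt5a by 1.32 at ILMN_2472917, while Sfrp4 gave -4.06 (limma adjusted p = 0.0896). The Lhr-null arrays left in that fit were not free of spermatid signal: the spermatid gene Prm1 read 8.98 and 10.22 on replicates 3 and 4. Wnt10b alone fell in Fshr-CAM/Lhr-null against Fshr-CAM (1.27% of all probes, 0.489% with 17 arrays), with a median of -0.25 against 0.02 for all probes. Wnt10b, Wnt4 and Sfrp4 fell in Fshr-CAM/Lhr-null against wild type (4.67% of all probes), with a median of -0.24 against 0.03; with 17 arrays Wnt10b and Sfrp4 did (2.14%). These medians cover only probes that passed the dim-probe filter, and probes of 1 gene share its transcript. The 10 genes were chosen with earlier results of these data known, and Wnt10b and Sfrp4 passed that filter only through arrays with Lhr. The counts and medians are therefore no test of these genes as a set.

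None of the 10 genes passed in the comparisons of Fshr genotypes. The count was 0 for Fshr-CAM against wild type, where 0.13% of all probes passed in either direction (0.00858% with 17 arrays). It was 0 for Fshr-CAM/Lhr-null against Lhr-null, where 0.563% did (0.558% with 17 arrays), and 0 for the interaction, where 0.156% did (0.0901% with 17 arrays). Before adjustment, both Wnt4 probes lay under the 0.05 threshold between Fshr-CAM and wild type in limma, as did 5.39% of all probes. The median over the 17 probes was -0.14 in the first of these comparisons and 0.00 in the second.

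**Figure D3:**
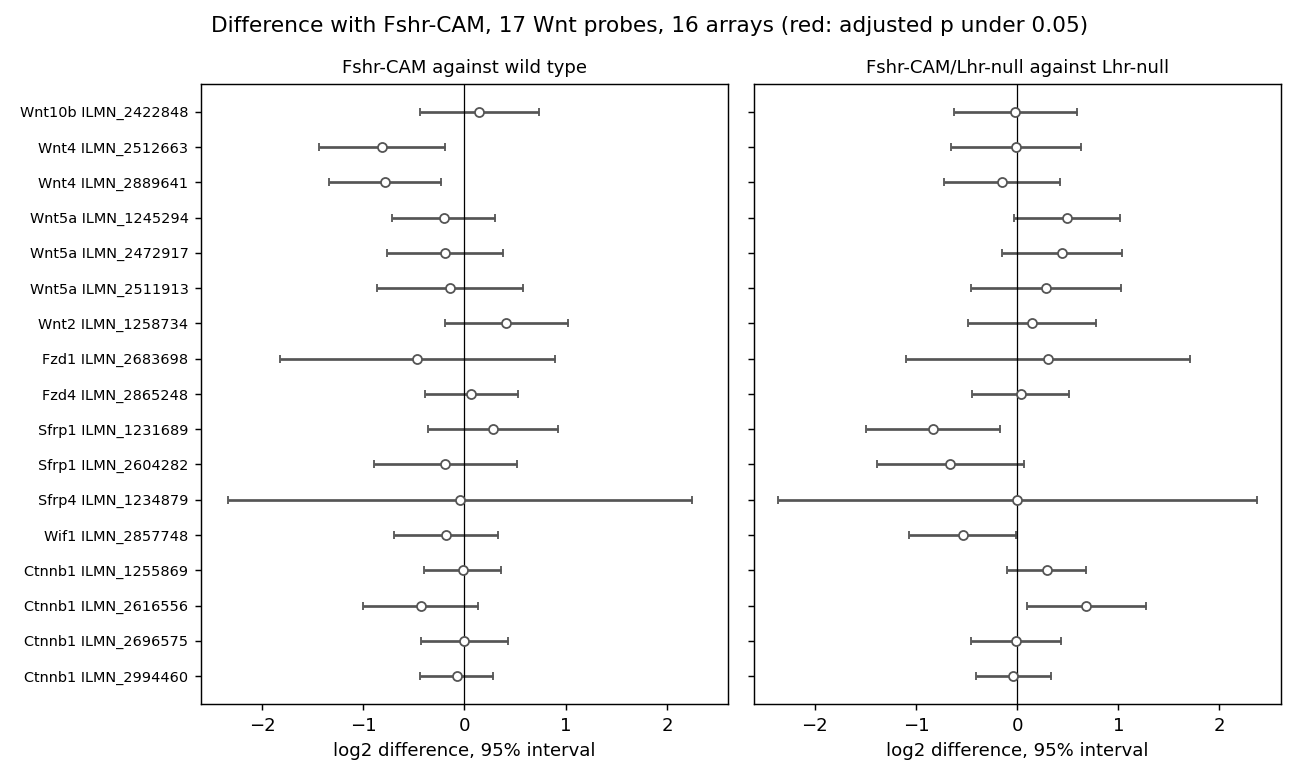
Log2 difference with Fshr-CAM for the same 17 probes, with Lhr intact (left) and without Lhr (right), from the fit on 16 arrays, with 95% intervals. No point is red: none had an adjusted p under 0.05. The Wnt4 probes lie at -0.78 and -0.82 on the left and at -0.15 and -0.01 on the right.

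The genotypes without Lhr, in which Wnt10b and Sfrp4 were not detected, also had low levels of luteal genes. Of 7 listed corpus luteum genes 6 were measured, and 5 of them (Akr1c18, Ptgfr, Star, Cyp11a1 and Scarb1) fell with loss of Lhr in both backgrounds (17 arrays 5 with Fshr intact and 4 in the Fshr mutant). Of all probes, 5.87% fell with Fshr intact and 1.27% in the Fshr mutant (17 arrays 4.03% and 0.489%). The luteal list mean ran from 9.34 to 11.09 on the 8 arrays with Lhr and from 6.30 to 7.28 on the 8 without, again with no overlap. Ptgfr, the prostaglandin F receptor and a defining luteal gene, lay at 4.37 to 4.76 without Lhr, which is background. The part of luteal tissue in the Wnt10b, Sfrp4 and Wnt4 results was not tested.

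Within the 8 arrays with Lhr, the 4 with the highest luteal means (10.43 to 11.09) were also the 4 with the highest Wnt10b (9.29 to 9.67), and the other 4 read 8.33 to 8.52. The same 4 were highest by Akr1c18, which ran from 9.80 to 14.36 on the 8 arrays, but not by Ptgfr. For Ptgfr, wild-type replicate 3 (7.85) was just above Fshr-CAM replicate 1 (7.82), though wild-type replicate 3 had the lowest Wnt10b of the 8 (8.33). Wild-type replicate 2 had the highest luteal mean (11.09) and Fshr-CAM replicate 4 the lowest (9.34). Wnt10b was 9.29 and 8.50 on these arrays, Sfrp4 10.58 and 4.99, and Wnt4 10.10 and 8.88. Sfrp4 did not split into the same sets of 4 arrays as Wnt10b. Wild-type replicate 4, with a luteal mean of 10.62, read 7.97 for Sfrp4, and Fshr-CAM replicate 3, with 10.08, read 9.40. The lowest Wnt4 value with Lhr, 8.20, was on Fshr-CAM replicate 1, whose luteal mean of 10.59 was among the highest and whose Sfrp4 of 11.94 was the highest of all. Endothelial list means were 7.46 to 7.77 on Lhr-null arrays against 7.95 to 8.46 in wild type, and 3 of 6 genes of that list fell (17 arrays 4). Of all probes, 5.87% fell there (17 arrays 4.03%). In Lhr-null against wild type, where 3.69% of all probes rose, 4 of 7 oviduct genes, 4 of 5 tested adipocyte genes, 5 of 9 granulosa genes, 2 of 4 tested theca genes and 2 of 3 tested spermatid genes rose. With 17 arrays these counts were 4, 1, 0, 0 and 2, where 1.78% of all probes rose. In Fshr-CAM/Lhr-null against wild type, 5 of 9 granulosa, 3 of 4 tested theca and 2 of 5 tested smooth muscle genes rose, and with 17 arrays 0 of each. The 5 granulosa genes included Fshr, the gene of the mutation, whose rise there cannot be read as a granulosa cell marker. Of all probes, 3.23% rose in that comparison (17 arrays 0.51%). The part of these lists in the Wnt results was not tested.

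**Figure D4:**
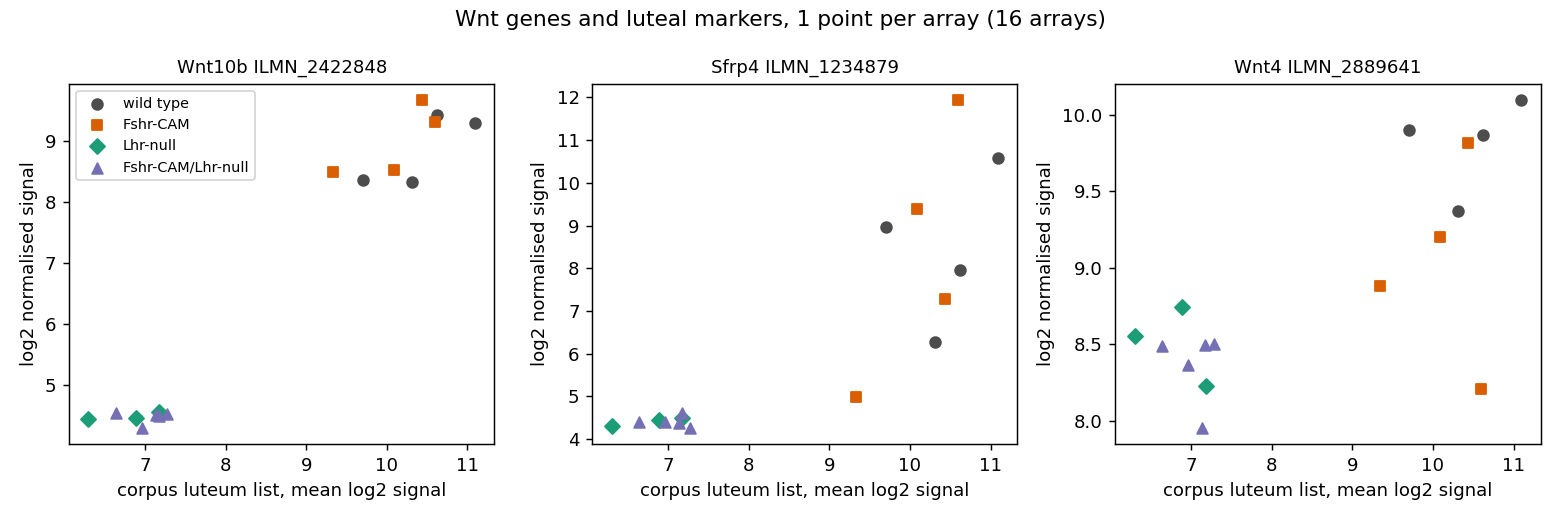
Wnt10b, Sfrp4 and Wnt4 (log2 normalised signal) against the mean log2 signal of 6 corpus luteum genes, 1 point per array for 16 arrays, coloured by genotype. Arrays with Lhr lie at luteal means of 9.34 to 11.09 and arrays without at 6.30 to 7.28. Within the right-hand cloud Sfrp4 runs from 4.99 to 11.94.

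The genes most like each member over the 16 arrays were found by the root mean square difference of log2 values centred on each gene's mean. Only members whose genotype means spanned over 1 log2 unit were considered. Nearest to Wnt10b were Nrcam (0.58), Ptgfr (0.59) and Tnc (0.61). Nearest to Wnt4 were Tmem200a (0.29), Cyp2d22 (0.32) and Shisa5 (0.33). Sfrp4 had no close match, its nearest being Tmem178 (1.36), Tnc (1.37) and Star (1.38). For Fzd1 they were ND4L (0.41), Rpl22l1 (0.46) and Sparcl1 (0.46), none of which separated the genotypes: Sparcl1 had means of 7.47 ± 1.02 in wild type and 6.82 ± 0.64 in Lhr-null (SD).

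Of 91 other listed genes of the pathway, 57 had a kept probe. Their counts below stand against the share of all probes called in each comparison: 3.69% rose and 5.87% fell in Lhr-null against wild type, 0.346% rose and 1.27% fell in Fshr-CAM/Lhr-null against Fshr-CAM, and 3.23% rose and 4.67% fell in Fshr-CAM/Lhr-null against wild type. Among the 5 measured of 15 other ligands, Wnt10a, the closest relative of Wnt10b, was likewise detected only with intact Lhr. Wnt10a lay at 5.89 to 7.63 in wild type and at 5.04 to 6.38 in Fshr-CAM, and it was detected on none of the 8 arrays without Lhr used here. Like Wnt10b and Sfrp4, Wnt10a passed the dim-probe filter only through arrays with Lhr. It fell at least 3.10-fold in Lhr-null against wild type (fitted -2.09 ± 0.34, limma adjusted p = 0.00143), but with 17 arrays the difference was -0.88 (adjusted p = 0.589). In the Fshr mutant its fall was at least 1.85-fold (limma adjusted p = 0.0311; 17 arrays 0.657) and held in 8 of 16 fits that left out an array, being lost without any one of Fshr-CAM replicates 1 to 3 or of the 5 Fshr-CAM/Lhr-null arrays. Wnt6, which rose by 0.91 ± 0.21 in Fshr-CAM/Lhr-null against Fshr-CAM (limma adjusted p = 0.0436; 17 arrays 0.697), kept its call in 6 of those 16 fits and differed from wild type by -1.03 in Fshr-CAM without passing (limma adjusted p = 0.149). The 10 fits that lost the Wnt6 call gave 0.70 at the lowest.

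Among 13 measured of 16 other receptors, the R-spondin receptors Lgr5 and Lgr6 moved in opposite directions in Lhr-null. Lgr6 lay at 5.34 to 6.36 in wild type, 7.20 to 8.27 in Fshr-CAM, 6.73 to 7.35 in Lhr-null and 6.62 to 7.25 in Fshr-CAM/Lhr-null, so that wild type was the lowest group and did not overlap the others. It was the only listed Wnt gene to pass between Fshr-CAM and wild type (1.63 ± 0.25, limma adjusted p = 0.02; 17 arrays 1.62, adjusted p = 0.897; lost without wild-type replicate 2 or Fshr-CAM replicate 3). Of all probes, 0.13% passed in that comparison (0.00858% with 17 arrays). Lgr6 also rose in Lhr-null (1.13 ± 0.27, limma adjusted p = 0.0166; 17 arrays 0.51, adjusted p = 0.581; lost without wild-type replicate 2 or Lhr-null replicates 2 or 4) and in Fshr-CAM/Lhr-null against wild type (0.89 ± 0.24, adjusted p = 0.0335; 17 arrays 0.353), where the call held in 8 of 16 fits. Its interaction was -1.88 ± 0.36 and did not pass (limma adjusted p = 0.0575). Lgr5, a receptor known as a stem cell marker in several tissues and itself a Wnt target, fell by -1.89 ± 0.57 in Lhr-null (limma adjusted p = 0.0488; 17 arrays -1.99, adjusted p = 0.0372), a call that held in 6 of 16 fits. Lgr5 was also below wild type in Fshr-CAM/Lhr-null (-1.92 ± 0.50, limma adjusted p = 0.0297; 17 arrays 0.055; 11 of 16 fits). The receptor Fzd2 rose in Fshr-CAM/Lhr-null against wild type (1.13 ± 0.27, limma adjusted p = 0.0167; 17 arrays 0.0659; lost without wild-type replicate 4).

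Of the 5 measured genes of Wnt secretion and R-spondins none passed in any comparison, and of 5 measured other antagonists Sfrp2 fell in Fshr-CAM/Lhr-null against wild type (-0.78 ± 0.22, limma adjusted p = 0.0384; 17 arrays 0.0675; 9 of 16 fits). Axin1, a scaffold of the destruction complex, was the 1 of 9 measured genes of that group to pass, and rose by 0.44 ± 0.11 in Lhr-null (limma adjusted p = 0.0185; 17 arrays 0.0812; lost without wild-type replicate 2 or Lhr-null replicate 2) and by 0.41 ± 0.09 in Fshr-CAM/Lhr-null (adjusted p = 0.015; 17 arrays 0.0605).

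Of 10 measured TCF/LEF factors and co-factors 2 rose and 1 fell in Lhr-null against wild type. The co-repressor Tle4 rose by 1.06 ± 0.15 (limma adjusted p = 0.000387; 17 arrays 1.41, adjusted p = 0.00407), with wild type at 9.30 to 9.61 and Lhr-null at 10.42 to 10.56, and it held in all 16 fits. Its relative Tle2 fell by 0.91 ± 0.22 (limma adjusted p = 0.0165; 17 arrays 0.0102; lost without wild-type replicate 2 or Lhr-null replicates 3 or 4). Tcf7l1, a TCF factor, rose by 0.52 ± 0.15 (limma adjusted p = 0.0434; 17 arrays 0.07, adjusted p = 0.934), in 7 of 16 fits. In Fshr-CAM/Lhr-null against wild type, Tle4 (0.79), Tcf7l1 (0.58), Bcl9 (0.44), Pygo2 (0.44) and Tle1 (0.47) rose and Tle2 (-0.90) fell; with 17 arrays Tle2 alone of these passed (limma adjusted p = 0.0238). Bcl9, Pygo2 and Tle1 were named after their values were seen, and their calls held in 6, 10 and 9 of the 16 fits.

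Of 10 measured target genes of Wnt and beta-catenin, 1 passed in any comparison, in Lhr-null against wild type, where 9.57% of all probes passed. That share is near the background and is not a result about the targets. Jun, an immediate early transcription factor that many other signals also induce, fell by 1.26 ± 0.35 in Lhr-null (limma adjusted p = 0.0331; 17 arrays 0.0212; lost without wild-type replicates 2 or 4 or Lhr-null replicates 2 or 3). The median over the 10 target genes was -0.29 in Lhr-null and 0.14 in Fshr-CAM/Lhr-null against wild type. No gene of the 7 lists passed in Fshr-CAM/Lhr-null against Lhr-null or in the interaction. Of all probes, 0.563% and 0.156% passed there in either direction. At shares this low, the lack of calls is not a result about the pathway.

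**Figure D5:**
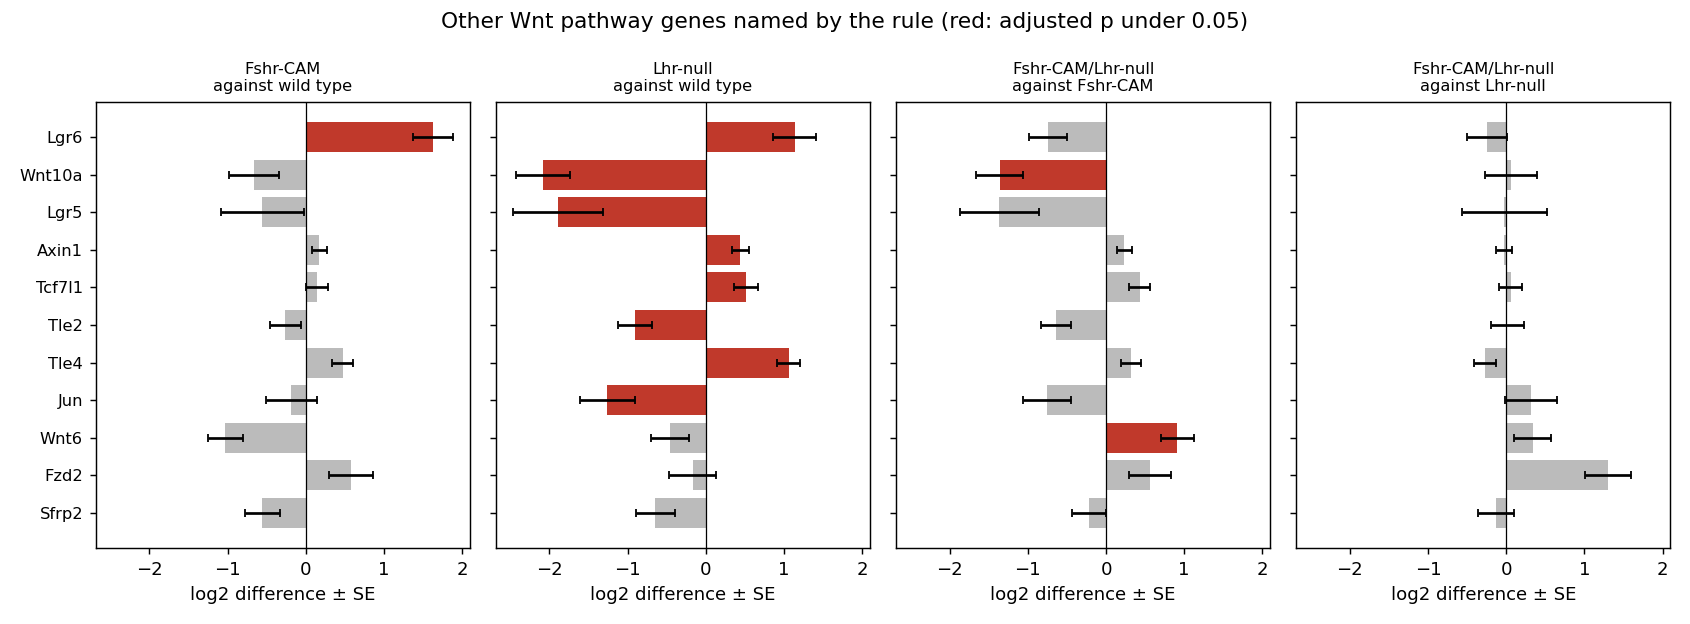
Fitted log2 difference ± SE of the 11 other pathway genes named by the rule, in 4 comparisons on 16 arrays, red where the adjusted p was under 0.05. Lgr6 is the only red bar for Fshr-CAM against wild type (1.63), and there is none for Fshr-CAM/Lhr-null against Lhr-null. Wnt10a is red at -2.09 and -1.36 with loss of Lhr.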

How the data were processed

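The members and gene lists were chosen with earlier results of these data known. Per the submitters' processing notes, GenomeStudio 1.7.0 was the authors' software. Their deposited non-normalised table gives, per the file headers, the mean bead intensity, detection p-value and bead count of each of 45281 probes on 17 arrays. A deposited quantile-normalised intensity table by the authors was an alternative. Groups came from the labels.

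From the non-normalised table, limma 3.58.1 in R 4.3.3 computed log2 values with neqc (offset 16) from the deposited intensity values. A probe was kept if 4 or more arrays had a detection p under 0.05: 23098 with 16 arrays and 23311 with 17. One mean per genotype was fitted with eBayes and a trend, and p-values were adjusted over all kept probes by Benjamini-Hochberg, with a threshold of 0.05. The fit was tested on simulated data. A group with no detected array gives "at least" folds, computed against the higher of that probe's value and the lowest detected signal of each array. These folds compare group means and do not take in the spread between arrays. Median bead numbers of 41 to 43 per probe and the number of arrays limit precision.

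All 10 members are named, and of each list the 3 genes with the largest change past the threshold in a comparison, by their brightest probe. Symbols came from the array annotation (34885 probes with 1 symbol, 18 with several, 10378 with none; the latter are unnamed). Alternatives were all 17 arrays, the authors' normalisation, median centring, other filters, 1 probe per gene, array weights, a replicate block, only the groups compared, and each array left out. Figures used matplotlib 3.10.9.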

Additional observations from a re-analysis of the deposited data

Results flagged for a closer look

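In 6 of 68 groups of 4 or 5 arrays, 1 array stood apart from the rest of its group by Dixon's test; chance alone gives about 1 in 20. For Wnt10b (ILMN_2422848) it was Fshr-CAM/Lhr-null replicate 3 at 4.30, below the 4.50 to 4.55 of the other 4, all at background. For Wnt4 it was Lhr-null replicate 1 at 5.31 (ILMN_2512663), the array with pituitary genes, and Fshr-CAM/Lhr-null replicate 5 at 7.95 (ILMN_2889641), against 8.37 to 8.50 on the other 4. For Fzd1 it was Lhr-null replicate 3 at 6.22, counted among 4 Lhr-null arrays. For Ctnnb1 (ILMN_2696575) it was wild-type replicate 4 at 11.13, and for Fzd4 (ILMN_2865248) Fshr-CAM replicate 1 at 5.61.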

How the results depend on the processing

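The Wnt10b calls held in each of the 9 other settings and in each of the 16 fits without 1 array, with differences of -4.37 to -3.15 and -4.53 to -4.15 for Lhr-null against wild type. The Wnt4 calls in that comparison held in the same settings (ILMN_2889641 -1.78 to -1.28). Of the member results under other settings, 2388 kept their side of the threshold, 36 fell short of it and 7 came past it. Of all 2431, 116 changed sign, and 0 of these passed in either fit; with 17 arrays Sfrp1 turned from 0.87 to -0.16 and from 0.75 to -0.12 in Lhr-null against wild type, and from -0.83 to 0.20 and from -0.66 to 0.21 in Fshr-CAM/Lhr-null against Lhr-null. Genes past the threshold among the 10 numbered 2 (in place of 1) for Fshr-CAM/Lhr-null against Fshr-CAM with median centring, where Wnt4 joined, and 2 with array weights, where Sfrp4 joined. Calls that Wnt5a gained under other settings are given with that gene above. Leaving out 1 array gave 2 to 4 genes for Lhr-null against wild type, 1 to 2 for Fshr-CAM/Lhr-null against Fshr-CAM, 2 to 3 for Fshr-CAM/Lhr-null against wild type, and 0 elsewhere. Sfrp4 in Lhr-null lost its call with the authors' normalisation (-2.99), median centring (-3.15), no filter (-4.03) and the replicate block (-3.60); the cause was not tested.

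Probes past the threshold numbered 30 for Fshr-CAM against wild type, 2210 for Lhr-null against wild type, 374, 130 and 1824 for Fshr-CAM/Lhr-null against Fshr-CAM, Lhr-null and wild type, and 36 for the interaction. Without 1 array they ran from 6 to 46, 1240 to 2604, 190 to 630, 59 to 413, 1022 to 2216 and 20 to 88. In the first comparison the number was 2 with 17 arrays, 14 with median centring, 51 with array weights and 7 with only the groups compared. In the second it was 1354 with 17 arrays and 1338 with only the groups compared. Against Fshr-CAM it was 118 with 17 arrays and 769 with median centring. Against Lhr-null it was 199 with the strict filter, 85 with 1 probe per gene, 470 with array weights, 66 with the replicate block and 25 with only the groups compared. Median centring moved the split of higher and lower probes: 853 and 1357 became 539 and 1469 for Lhr-null against wild type, and for the combined genotype 80 and 294 became 27 and 742 against Fshr-CAM, 20 and 110 became 2 and 115 against Lhr-null, and 746 and 1078 became 174 and 1687 against wild type. Against Lhr-null it was 238 and 232 with array weights and 216 and 197 without Fshr-CAM/Lhr-null replicate 4. With 17 arrays it was 4 and 114 against Fshr-CAM and 119 and 499 against wild type. The combined genotype against wild type gave 618 probes with 17 arrays, 1190 with no filter and 2908 with array weights. For the interaction it was 21, 58, 74, 109 and 17 with 17 arrays, no filter, the strict filter, array weights and the replicate block.

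Replicate numbers did not pair the arrays: deviations of same-numbered arrays correlated at -0.483 to 0.332 (21 pairs). Only 3 of 16 arrays correlated best with their own number. Other pairs across genotypes correlated at -0.453 to 0.504 (74 pairs). Wild-type replicate 4, Fshr-CAM replicate 1, Lhr-null replicate 3 and Fshr-CAM/Lhr-null replicate 5 correlated with each other at 0.235 to 0.504. Each was the highest of its group for Ctnnb1 at ILMN_2696575. They include the arrays flagged above for Fzd1, for Fzd4, for Ctnnb1 and, at ILMN_2889641, for Wnt4. At that Wnt4 probe 3 of them were the lowest arrays used in their groups. These were Fshr-CAM replicate 1 (8.20), Lhr-null replicate 3 (8.23) and Fshr-CAM/Lhr-null replicate 5 (7.95). Wild-type replicate 4 (9.86) was not the lowest of its group. The source of this pattern was not tested. Slide was not run as a block, since the headers used here give none. Signals near background limit Wnt2, Fzd4 and Wif1.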
